A study of Mus musculus with 16 samples.

Results

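The genes that encode histone methyltransferases and histone demethylases were examined in mouse pluripotent stem cell lines. Members were the rows whose gene name begins with Kdm, Jmjd, Setd, Setdb, Suv39h, Suv420h, Ehmt, Prmt, Whsc or Mll followed by a digit, which gave 53 of 22552 genes in the table. Of these, 51 had a mean of at least 0.5 FPKM (a level scaled to transcript length and library size) over 16 lines and were among the 13185 genes tested, and the 2 others were Kdm4d and Kdm5d. By family and known activity, 26 members were classed as writers, which add methyl groups, and 17 as erasers, of which 15 were tested. Every Prmt and Mll gene was classed as a writer, although Prmt3 acts on ribosomal protein S2 and the activity of Mll5 on H3K4 is unsettled. The remaining 10 were 4 SET proteins (Setd3, Setd4, Setd5 and Setd6) and 5 JmjC proteins (Jmjd4 to Jmjd8) whose main targets are not histones or are unsettled, and Whsc2, a subunit of the negative elongation factor NELF that shares only the name pattern.

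All 16 lines carried the 129-M2rtTA background and came from adipocyte progenitor cells (APCs) by either of 2 routes, with 1 RNA-seq library per line. AN lines were nuclear transfer embryonic stem cells, made by moving an APC nucleus into an enucleated oocyte, and AI lines were induced pluripotent stem cells (iPSCs), made by switching on reprogramming factors with doxycycline. F (fully reprogrammed) and P (partially reprogrammed) state whether a line could support tetraploid complementation, in which the injected cells must form the whole embryo. AN1, AN9, AN15 and AN20 were AN F (n = 4), and the 5 lines of the AN P group were numbered AN2, AN3, AN5, AN6 and AN7. AI3, AI7, AI10 and GS32 were AI F (n = 4), while AI9, GS4 and GS9 were AI P (n = 3). Passages ran from 5 to 7, apart from 13 in GS32 and 17 in GS4. Each line is 1 clone, so the spread within a group is the spread between clones. The state of each line came from the study and was matched to the library by its title. The record's source field gives GS4 for both GS9 and GS32, so the AI values rest on the titles. GS4, GS9 and GS32 had been identified earlier than the other AI lines, a difference called derivation here.

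Writers place methyl groups on lysine or arginine residues of histone tails, and erasers take them off again. Methylation of lysine 4 of histone H3 (H3K4) marks active promoters, H3K36 methylation marks transcribed gene bodies, H3K27 methylation is laid down by Polycomb complexes, and H3K9 and H4K20 methylation mark compact chromatin. In reprogramming, H3K9 methylation inherited from the donor cell is a known barrier, and the H3K9 demethylases of the Kdm3 and Kdm4 families are known to relieve it.

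Jmjd1c and Kdm3a are paralogues of the Kdm3 family, both classed here as H3K9 erasers. They are shown by their promoters because of their place among the members. Jmjd1c alone kept the AI F and AI P lines apart, and Kdm3a had the largest positive difference between AN F and AN P. Every AI F line lay above every AI P line in 1.70% of all genes tested and below in 3.19%. Neither difference passed adjustment over all genes. The sequences run from 250 bases before to 50 bases after the RefSeq start in GRCm38.p6, the first window listed for each gene, with every CpG dinucleotide in capitals. Jmjd1c lies at chr10:67126838-67127137 on the plus strand and Kdm3a at chr6:71632868-71633167 on the minus strand.
Jmjd1c: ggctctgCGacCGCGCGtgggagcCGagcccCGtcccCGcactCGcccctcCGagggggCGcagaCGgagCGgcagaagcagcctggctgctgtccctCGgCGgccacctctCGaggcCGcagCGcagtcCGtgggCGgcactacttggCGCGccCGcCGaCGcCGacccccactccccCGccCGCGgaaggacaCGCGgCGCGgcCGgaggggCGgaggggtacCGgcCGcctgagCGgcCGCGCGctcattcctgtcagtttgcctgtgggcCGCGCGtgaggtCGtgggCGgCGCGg
Kdm3a: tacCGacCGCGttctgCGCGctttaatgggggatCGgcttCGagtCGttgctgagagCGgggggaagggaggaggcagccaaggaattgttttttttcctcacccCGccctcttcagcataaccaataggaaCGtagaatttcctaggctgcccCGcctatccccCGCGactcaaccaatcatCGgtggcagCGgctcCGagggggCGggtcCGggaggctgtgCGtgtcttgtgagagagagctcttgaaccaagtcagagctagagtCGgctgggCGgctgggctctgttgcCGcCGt
The Jmjd1c window held 47 CpG and the Kdm3a window 24. Over the 27025 genes with a window the median was 7.00, and 94.2% held at least 1 CpG, a motif that reads the same on both strands. Windows were matched for 44 of the 53 members, by symbol or by an unambiguous older symbol, and their median was 21.5 CpG. Most of the members matched thus had CpG-rich starts, with exceptions at Kdm4c, which had 0 CpG, and Setd5, which had 1. More than 1 window was listed for some members, with 2 for Jmjd1c, 3 for Kdm3a and 2 for Kdm4c. Those after the first were not counted, and which start these lines use was not tested.

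The libraries resembled each other in depth as far as FPKM shows it. The commonest ratio of low values gave depths of 0.963 to 1.26 relative to AN1, and summed FPKM ran from 661973 to 963434. The pluripotent label held in every group: 10 of the 11 pluripotency markers listed were in the table, each had a mean above 1 FPKM in all 4 groups, and their summed FPKM was 1649.5 to 3198.4 per line. Fibroblast markers were also present, with all 14 above a mean of 1 FPKM in every group and summed FPKM of 874.3 to 1576.2 in AN F, 1069.8 to 2088.8 in AN P, 1124.1 to 2149.0 in AI F and 491.2 to 1849.6 in AI P. The nuclear transfer lines were derived on fibroblast feeders, and in bulk RNA a smaller number of cells of a type and less RNA per cell cannot be told apart. The 8 extraembryonic endoderm markers summed to 4.55 to 14.5, and Ttr was listed at 0 in 3 groups. AN9 and AN20 had 28.1% and 27.9% of their summed FPKM in microRNA, small nucleolar and small nuclear RNA genes, against 15.8% to 23.3% in the other lines.

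Levels differed far more between the genes than between the lines. The arginine methyltransferases Prmt1, the main writer of asymmetric dimethylarginine, and Prmt5, the main writer of symmetric dimethylarginine, had mean levels of 394.5 and 111.8 FPKM over the 16 lines. They were followed by the H4K20 monomethyltransferase Setd8 at 86.0 FPKM, the H3K4 demethylase Kdm1a (LSD1) at 69.7 FPKM and the H3K4 demethylase Kdm5b at 60.8 FPKM. Ranges over the lines were 326.3 to 475.8 FPKM for Prmt1 and 89.5 to 135.8 FPKM for Prmt5, so these did not overlap, while the ranges of Setd8 (75.4 to 109.5), Kdm1a (57.3 to 96.0) and Kdm5b (33.3 to 95.7) did. The lowest means were those of Kdm4d (0.0771 FPKM), Kdm5d (0.304 FPKM), the brain-enriched arginine methyltransferase Prmt8 (0.916 FPKM), the H3K4 writer Mll3 (3.07 FPKM) and Jmjd5 (3.21 FPKM). The median of the mean levels was 14.3 FPKM for the writers, 19.8 FPKM for the tested erasers together with the 2 under the filter, and 8.98 FPKM for all genes tested.

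**Figure D1:**
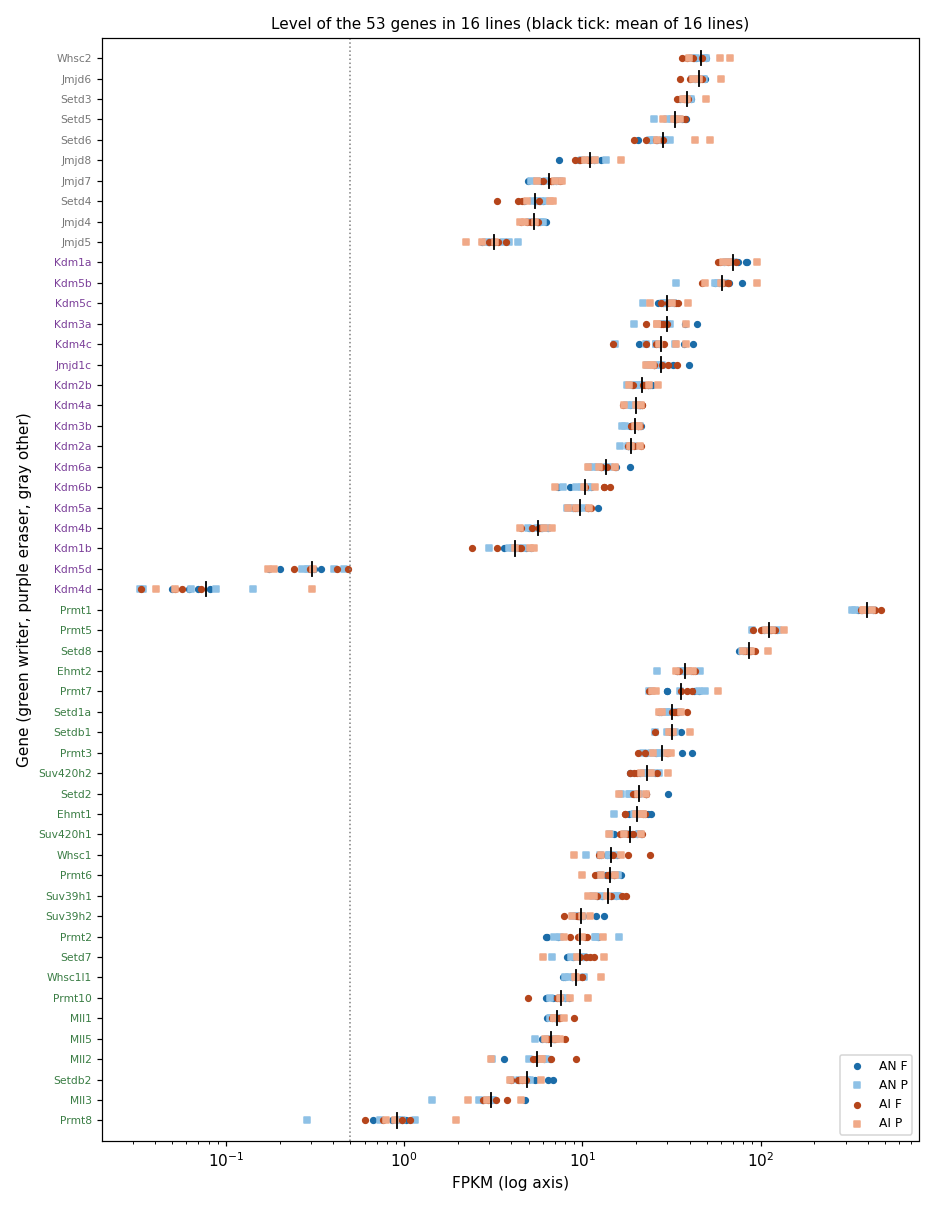
FPKM of the 53 genes on a log axis, 1 point per line coloured by group, with a black tick at the mean of the 16 lines and a dotted line at 0.5 FPKM, the level required for testing. Prmt1 lies highest at a mean of 394.5 FPKM, and Kdm4d and Kdm5d are the 2 genes below the dotted line.

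Among the H3K9 writers, levels spanned from Setdb2 to Ehmt2. Mean levels were 37.5 FPKM for Ehmt2 (G9a) and 20.3 FPKM for its partner Ehmt1 (GLP), which together write H3K9 mono- and dimethylation, and 31.7 FPKM for Setdb1, which silences retroviral elements in stem cells. The trimethylating enzymes Suv39h1 and Suv39h2 were at 13.9 and 9.83 FPKM, and Setdb2 was at 4.90 FPKM. Among the H3K9 erasers, Kdm3a (29.8 FPKM), Jmjd1c (27.5 FPKM), Kdm4c (27.5 FPKM), Kdm4a (19.9 FPKM) and Kdm3b (19.8 FPKM) were all well above Kdm4b (5.64 FPKM). The X-linked H3K4 demethylase Kdm5c had 21.8 to 39.1 FPKM, and its Y-linked homologue Kdm5d 0.173 to 0.486 FPKM.

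Most members varied little from line to line. The median SD of log2(FPKM + 1) over the 16 lines was 0.191 for the 51 members and 0.212 for all genes tested. The most variable members were Kdm4c (SD 0.409, 14.9 to 41.9 FPKM), Prmt7 (0.406, 23.5 to 58.0 FPKM), Prmt2 (0.361, 6.27 to 16.1 FPKM), Setd6 (0.346, 19.4 to 52.0 FPKM) and Mll2 (0.341, 3.08 to 9.20 FPKM). These are an H3K9 and H3K36 demethylase, a pair of arginine methyltransferases, a lysine methyltransferase best known for the NF-kappaB subunit RelA, and an H3K4 writer.

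The first comparison asked whether writers and erasers differ between fully and partially reprogrammed nuclear transfer lines. No member passed an adjusted p of 0.05 in limma, with Benjamini-Hochberg adjustment over the 13185 genes, and neither did any gene (0%). The smallest adjusted p among the members was 0.636. At an unadjusted limma p under 0.05, 3 members were higher in AN F, namely Jmjd1c, Kdm3a and Suv39h2, and 0 were lower. That was 5.88% of the members higher, against a background of 3.02% of all genes higher and 2.99% lower. No member kept the AN F and AN P lines apart, while 0.584% of all genes lay higher in every AN F line and 0.713% lower.

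Jmjd1c, on chromosome 10 at chr10:66558873-66719074 of mm9, had the following values in AN F: 27.8 FPKM in AN1, 32.3 in AN9, 25.3 in AN15 and 39.6 in AN20. In AN P it was at 27.9 FPKM in AN2, 23.2 in AN3, 25.8 in AN5, 25.8 in AN6 and 23.1 in AN7. AN20 and AN9 lay above every AN P line, while AN1 and AN15 lay inside the AN P range. The mean was 31.3 ± 6.27 FPKM in AN F (SD, n = 4) and 25.1 ± 2.03 FPKM in AN P (SD, n = 5). The difference was 0.29 ± 0.12 (SE) on the log2(FPKM + 1) scale, with an unadjusted limma p of 0.0454, an adjusted limma p of 0.636 and an exact two-sided permutation p of 0.111. Without AN9 and AN20, the lines with most small RNA, it was 0.08. Jmjd1c overlaps Reep3 on the other strand, and the strand setting of the counting is not given in the sources used here. The same limit holds for other members, among them Whsc2 (with Whsc1), Setdb1 (Lass2), Kdm1b (Tpmt), Kdm1a (Luzp1) and Jmjd4 (Snap47).

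Kdm3a, at chr6:71538968-71582899 of mm9, showed the same lines at the top. It was at 29.6 FPKM in AN1, 37.4 in AN9, 30.0 in AN15 and 44.2 in AN20, against 29.8 in AN2, 27.8 in AN3, 28.2 in AN5, 19.6 in AN6 and 31.1 in AN7. Again AN9 and AN20 lay above all AN P lines, and AN6 lay below all other AN lines. The mean was 35.3 ± 6.92 FPKM in AN F (SD, n = 4) and 27.3 ± 4.48 FPKM in AN P (SD, n = 5), a difference of 0.36 ± 0.16 (SE) on the log2 scale (limma p = 0.0499, adjusted limma p = 0.636, exact permutation p = 0.0794). It was 0.14 without AN9 and AN20 and 0.25 without AN6, and passed the unadjusted threshold in neither case.

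Suv39h2, a writer of H3K9 trimethylation at chr2:3373087-3392303 of mm9, had its highest values in the same lines. It was at 9.55 FPKM in AN1, 11.9 in AN9, 10.1 in AN15 and 13.2 in AN20, against 9.34 in AN2, 8.81 in AN3, 9.61 in AN5, 9.93 in AN6 and 9.16 in AN7. AN9, AN15 and AN20 lay above all AN P lines and AN1 within them. The difference was 0.22 ± 0.10 (SE) on the log2 scale (limma p = 0.0458, adjusted limma p = 0.636, exact permutation p = 0.0476, where the smallest p possible is 0.0159). Without AN9 and AN20 it was 0.06. Suv39h2 overlaps Dclre1c on the other strand. AN9 and AN20, high in Jmjd1c, Kdm3a and Suv39h2 alike, also had the lowest summed fibroblast markers of the AN lines, 874.3 and 879.7 FPKM against 1069.8 to 2088.8 FPKM. Over the 9 AN lines the r with the fibroblast marker mean was -0.75 for Suv39h2, -0.63 for Jmjd1c and -0.34 for Kdm3a. With the pluripotency marker mean it was 0.19 for Suv39h2, 0.31 for Jmjd1c and 0.81 for Kdm3a. The part of either in these differences was not tested.

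**Figure D2:**
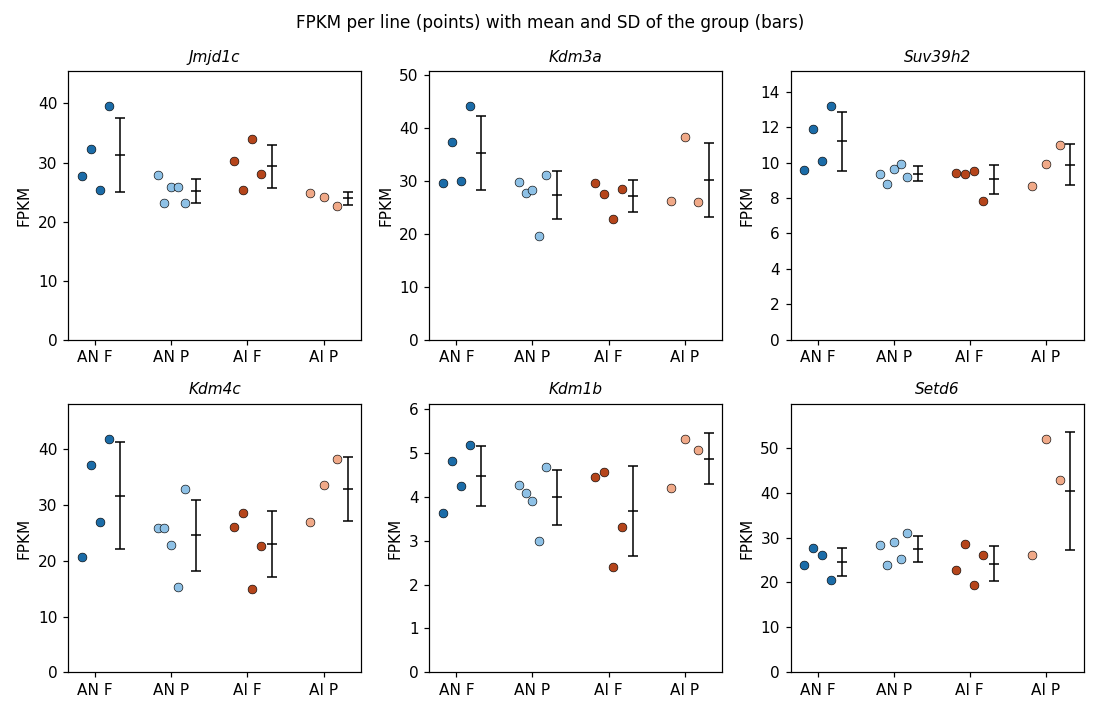
FPKM of 6 members in each line, by group, with the mean and SD of each group as a bar to the right of its points. In Jmjd1c the AI F points all lie above the AI P points, in Kdm3a 2 AN F lines reach 37.4 and 44.2 FPKM, and in Setd6 2 AI P lines reach 42.7 and 52.0 FPKM.

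Nearly all erasers had a higher mean in AN F. Of the 15 tested erasers, 14 had a higher mean in AN F, the exception being the H3K27 demethylase Kdm6b (a difference of -0.05), and their median difference was 0.14 on the log2 scale. Of the 26 writers, 17 had a higher mean in AN F and 9 a lower one, with a median of 0.04. Over all genes tested the median was -0.01 and 46.1% had a higher mean in AN F, so that both classes lay above it, and 33 of all 51 members did so. Genes of 1 line share its library, so these counts are a description and carry no test. Without AN9 and AN20, 12 of 15 erasers and 17 of 26 writers had a higher mean in AN F, with medians of 0.07 and 0.06. Without AN6 the counts were 11 of 15 erasers and 14 of 26 writers.

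By mark, all 5 tested H3K4 erasers had a higher mean in AN F, with differences from 0.03 (Kdm5c) to 0.28 (Kdm5b) and limma p from 0.0838 (Kdm1a) to 0.781 (Kdm5c). The 3 Kdm3-family erasers ranged from 0.07 (Kdm3b) to 0.36 (Kdm3a). The Kdm4 erasers were at 0.02 for Kdm4b, 0.05 for Kdm4a and 0.34 ± 0.24 (SE) for Kdm4c, which demethylates H3K9 and H3K36. Of the H3K9 writers, 5 of 6 had a higher mean in AN F, with Suv39h1 at -0.04 and Setdb2 highest at 0.25 ± 0.12 (SE, limma p = 0.0646, exact permutation p = 0.0952). For Ehmt1, Ehmt2 and Setdb1 the differences were 0.16 ± 0.12, 0.04 ± 0.14 and 0.12 ± 0.08 (SE). The H3K4 writers ranged from -0.08 to 0.26, the H4K20 writers from -0.13 to 0.05 and the arginine writers from -0.38 (Prmt2) to 0.23 (Prmt3).

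**Figure D3:**
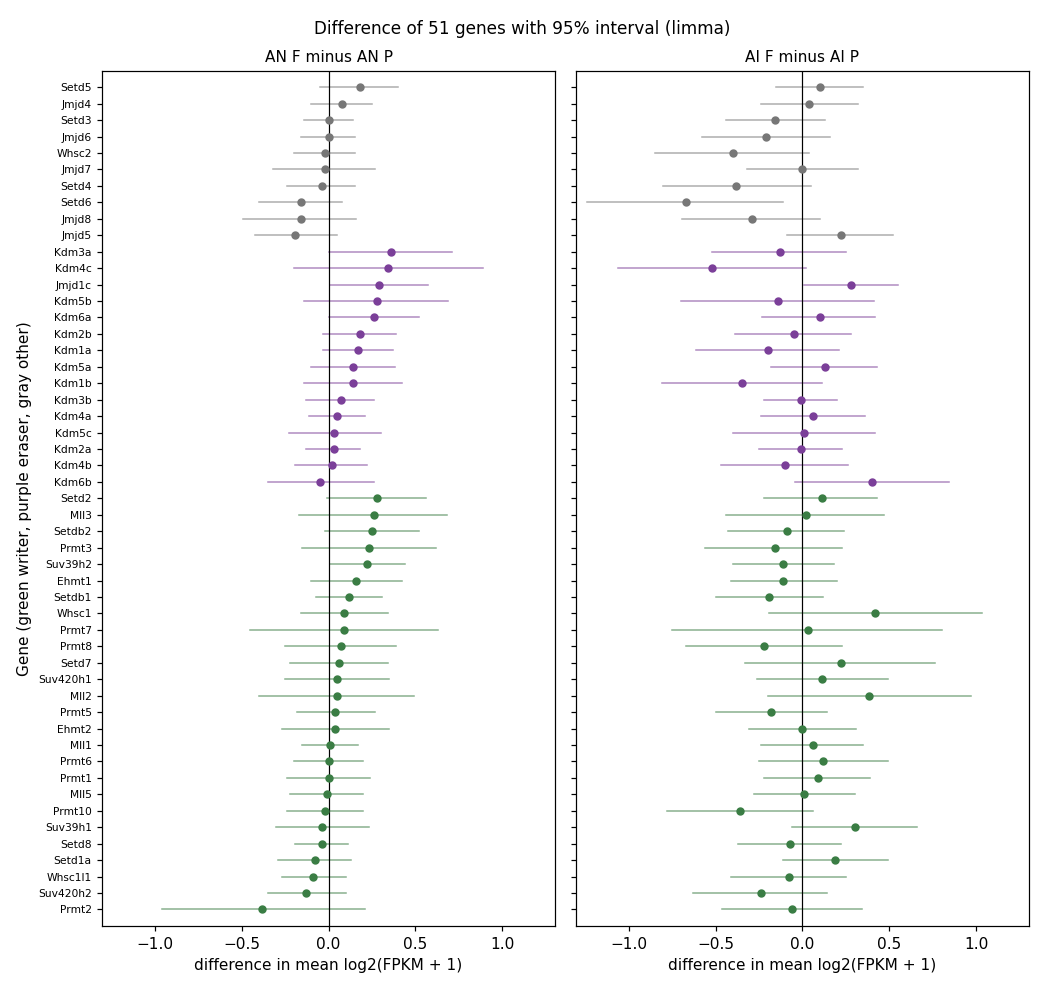
Difference in mean log2(FPKM + 1) of the 51 tested genes, F minus P, in AN lines (left) and AI lines (right), with 95% intervals from limma, in the same gene order in both panels. In AN, 14 of 15 erasers (purple) lie to the right of 0, and in AI 6 of 15 do.

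The same question was put to the iPSC lines. No member passed an adjusted p of 0.05 in limma (0% of all genes did), and the smallest among the members was 0.521. At an unadjusted limma p under 0.05, Jmjd1c was higher and Setd6 was lower in AI F, which is 1.96% of the members in each direction, against 3.47% of all genes higher and 4.30% lower. Jmjd1c was also the only member whose groups did not overlap, with all AI F lines above all AI P lines, as for 1.70% of all genes. No member lay lower in every AI F line, as 3.19% of all genes did.

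Jmjd1c was at 30.2 FPKM in AI3, 25.3 in AI7, 33.9 in AI10 and 28.0 in GS32, against 24.9 in AI9, 24.2 in GS4 and 22.7 in GS9. The gap between the groups was narrow, from 24.9 FPKM in AI9 to 25.3 FPKM in AI7. The mean was 29.4 ± 3.62 FPKM in AI F (SD, n = 4) and 23.9 ± 1.11 FPKM in AI P (SD, n = 3). The difference was 0.28 ± 0.12 (SE) on the log2 scale, with a limma p of 0.0468, an adjusted limma p of 0.521 and an exact permutation p of 0.0571, the smallest that 7 lines allow. Within the lines derived newly, AI9 lay below AI3, AI7 and AI10, and within the earlier lines GS4 and GS9 lay below GS32. With the derivation as a term the difference was 0.25 and did not pass. Leaving out any 1 AI line gave 0.21 to 0.35, and the limma p was under 0.05 only without AI7, at 0.0237. The fibroblast markers moved with these values, since GS4 and GS9 summed to 491.2 and 632.5 FPKM and the AI F lines to at least 1124.1, but AI9, low in Jmjd1c, was at 1849.6. Over the 7 AI lines Jmjd1c had an r of 0.74 with the fibroblast marker mean and -0.78 with the pluripotency marker mean. The part of either in the result was not tested.

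Setd6, at chr8:98239815-98242910 of mm9, was at 22.8 FPKM in AI3, 28.5 in AI7, 19.4 in AI10 and 26.0 in GS32, against 26.1 in AI9, 52.0 in GS4 and 42.7 in GS9. GS4 and GS9 lay far above the other lines, whereas AI9 lay inside the AI F range. These 2 lines also had the lowest summed fibroblast markers (491.2 and 632.5 FPKM) and the highest summed pluripotency markers (3198.4 and 3168.5 FPKM) of the 16 lines. Over the 7 AI lines, Setd6 had an r of -0.85 with the fibroblast marker mean and 0.97 with the pluripotency marker mean, and the part of either in the result was not tested. The mean was 24.2 ± 3.95 FPKM in AI F (SD, n = 4) and 40.3 ± 13.1 FPKM in AI P (SD, n = 3). The difference was -0.67 ± 0.24 (SE) on the log2 scale (limma p = 0.0255, adjusted limma p = 0.521, exact permutation p = 0.114), and -0.48 with the derivation as a term, where it did not pass. Without AI9 it was -0.95, and without GS4 it was -0.47 and did not pass.

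In AI, 6 of 15 erasers and 14 of 26 writers had a higher mean in AI F, with median differences of -0.01 and 0.01, against -0.04 and 43.7% higher for all genes tested. The eraser count rested on single AI P lines: it was 10 of 15 without GS4 and 3 of 15 without GS9. The 5 genes classed as H3K4 writers all had a higher mean in AI F, with limma p from 0.166 to 0.941. The differences ran from 0.01 (Mll5, whose activity on H3K4 is unsettled) to 0.38 ± 0.25 (SE, Mll2). Kdm4c was at -0.52 ± 0.23 (SE, limma p = 0.0569, exact permutation p = 0.114), and the H3K27 demethylase Kdm6b was at 0.40 ± 0.19 (SE, limma p = 0.0682, exact permutation p = 0.114). Among the H3K9 writers, Suv39h1 was at 0.30 ± 0.15 and Setdb1 at -0.19 ± 0.13 (SE), neither of which passed.

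With every line in 1 model, an interaction contrast asked whether the F minus P difference was larger or smaller in AI. The exact permutation p of the interaction, here and below, come from exchanging F and P within AN and within AI. They thus refer to no F minus P difference in either kind of line, not to an equal one in both. No member passed an adjusted p of 0.05 in limma (0% of all genes did), the smallest being 0.290. At an unadjusted limma p under 0.05, 1 member had a larger difference in AI and 3 a smaller one, that is 1.96% and 5.88% of the members, against 8.30% and 8.34% of all genes, so that the members did not exceed the background. Kdm4c had a difference of 0.34 in AN and -0.52 in AI, giving -0.86 ± 0.36 (SE, limma p = 0.0290, adjusted limma p = 0.290, exact permutation p = 0.0336). Kdm1b, an H3K4 demethylase known from oocytes, was at 0.14 and -0.35, giving -0.49 ± 0.23 (SE, limma p = 0.0470, exact permutation p = 0.0531). Suv39h2 was at 0.22 and -0.11, giving -0.33 ± 0.15 (SE, limma p = 0.0406, exact permutation p = 0.0331). Jmjd5 went the other way, at -0.19 in AN and 0.22 in AI, giving 0.41 ± 0.16 (SE, limma p = 0.0240, exact permutation p = 0.0159). For Jmjd1c the AI minus AN value was -0.01 ± 0.18 (SE), with a 95% interval of -0.39 to 0.37, an interval that includes values as large as the difference in either kind of line.

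Without AI9, which leaves GS4 and GS9 as AI P, 2 members passed an adjusted p of 0.05 for the interaction in limma. They were Setd6, at -0.79 ± 0.20 (SE, limma, adjusted p = 0.0433), and Whsc2, at -0.60 ± 0.15 (SE, limma, adjusted p = 0.0413). In that fit 1.52% of all genes were called in this direction. GS4 and GS9 had the highest Whsc2 of all lines, 58.8 and 67.7 FPKM, against 36.3 to 49.3 FPKM elsewhere. GS32, the only earlier line in AI F, was at 26.0 FPKM for Setd6 and 41.7 FPKM for Whsc2, below GS4 and GS9 in both. These 2 lines also stood apart in the marker sets, and over the 7 AI lines Whsc2 had an r of -0.93 with the fibroblast marker mean and 0.89 with the pluripotency marker mean, whose part in the result was not tested.

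Kdm4c, at chr4:73888401-74051764 of mm9, had the largest SD of the members. It was at 20.7 FPKM in AN1, 37.2 in AN9, 26.9 in AN15 and 41.9 in AN20, and at 25.9 in AN2, 25.8 in AN3, 22.8 in AN5, 15.3 in AN6 and 32.9 in AN7. In AI it was at 26.0 FPKM in AI3, 28.6 in AI7, 14.9 in AI10 and 22.6 in GS32, while AI9 had 26.9, GS4 33.5 and GS9 38.3. High and low lines thus occurred on both sides: AI10 and AN6 were lowest, and AN20, GS9 and AN9 highest.

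Of the other members with a wide spread, Prmt7, Prmt2, Mll2 and Kdm5b did not divide by F and P. Prmt7 was at 42.1 FPKM in AN1, 45.2 in AN9, 29.8 in AN15 and 30.0 in AN20, against 45.0 in AN2, 24.3 in AN3, 48.5 in AN5, 23.7 in AN6 and 35.1 in AN7, and its highest level was 58.0 in GS4. The AN F lines lay inside the AN P range, and the difference was 0.09 ± 0.24 (SE) in AN and 0.03 ± 0.33 in AI. Prmt2 was at 6.27 to 12.2 FPKM in AN F and 6.92 to 16.1 in AN P, with AN6 highest, a difference of -0.38 ± 0.26 (SE, limma p = 0.179, exact permutation p = 0.190). Mll2 was at 3.64 to 6.59 FPKM in AN F, 3.11 to 6.24 in AN P, 5.31 to 9.20 in AI F and 3.08 to 5.90 in AI P. AI3 was its highest line, and GS9 and AN6 were the lowest. Kdm5b had 55.5 to 78.5 FPKM in AN F, 33.3 to 62.8 in AN P, 47.1 to 65.8 in AI F and 48.8 to 95.7 in AI P, with AN6 lowest and GS4 highest. Kdm1a, Kdm6a and Setd2 varied less (SD 0.197, 0.188 and 0.206) and had higher means in AN F, though the groups overlapped. Kdm1a, which removes H3K4 mono- and dimethylation in the CoREST complex, had 62.4 to 83.7 FPKM in AN F and 64.3 to 70.8 in AN P. AN9 and AN20 lay above all AN P lines, as did AN15 at 75.1, while AN1 was at 62.4. The Polycomb-opposing H3K27 demethylase Kdm6a had 13.2 to 18.4 FPKM in AN F and 10.9 to 14.3 in AN P, a difference of 0.26 ± 0.12 (SE, limma p = 0.0511, exact permutation p = 0.0794), and Setd2 had 19.5 to 30.3 FPKM and 16.5 to 20.9, a difference of 0.28 ± 0.13 (SE, limma p = 0.0540, exact permutation p = 0.0794). Both were highest in AN20.

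Kdm1b followed Kdm4c closely from line to line, and of the other 50 members tested none had a higher correlation with it. Over the 16 lines Pearson's r was 0.94 and Spearman's rho 0.95, and r was 0.90 without AI10 and AN6, 0.99 in the 9 AN lines and 0.96 in the 7 AI lines. For the arginine methyltransferase Prmt3, which acts on ribosomal protein S2, r with Kdm4c was 0.87. Kdm3a was most like Kdm5b (r = 0.87, rho = 0.73), Setdb1 (0.84, 0.72) and Mll3 (0.84, 0.72). Jmjd1c was most like Kdm5a (r = 0.74) and Setd2, which trimethylates H3K36 (r = 0.73). Its r with Kdm4c was -0.00 over the 16 lines, but 0.55 in the AN lines and -0.92 in the AI lines. These pairs were picked after their values were seen, from 252 correlations, and the genes of a line share its library, so they are given as a description.

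**Figure D4:**
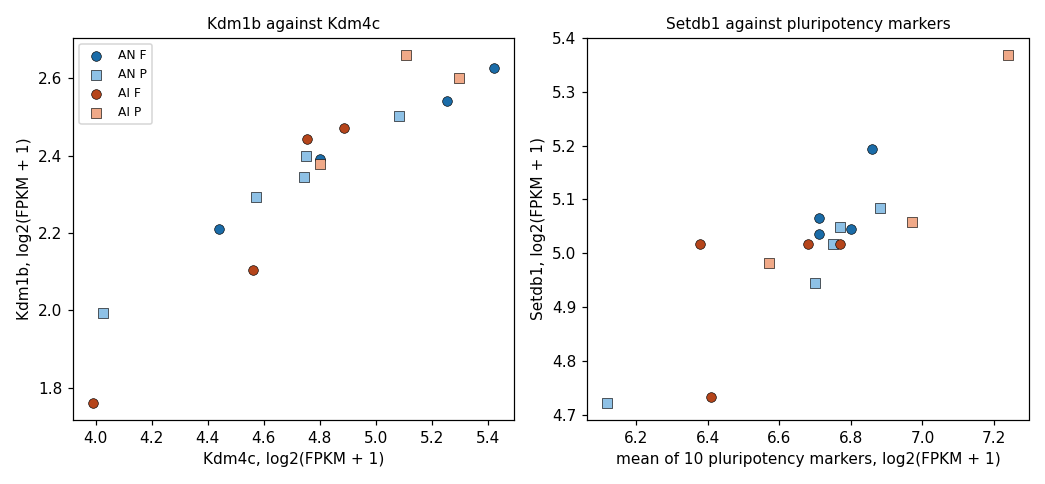
Left, log2(FPKM + 1) of Kdm1b against that of Kdm4c, and right, of Setdb1 against the mean of 10 pluripotency markers, with 1 point for each of the 16 lines, coloured by group. The points rise together in both panels, with r = 0.94 on the left and r = 0.87 on the right, where AN6 is at the lower left and GS4 at the upper right.

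Over all 16 lines, Setdb1 had the highest correlation with the pluripotency markers of the members tested. Its correlation with their mean log2(FPKM + 1) was r = 0.87 (rho = 0.89) over the 16 lines, 0.93 in AN and 0.83 in AI, and 0.67 without AN6 and GS4. It was highest in GS4 at 40.3 FPKM and lowest in AN6 at 25.4 FPKM and AI10 at 25.6 FPKM. Next among the writers and erasers were Prmt5 (r = 0.79, 0.56 without AN6 and GS4), Prmt8 (0.78, 0.29) and Kdm4c (0.73, 0.65). Whsc2, in neither class, had 0.75. The rank of Setdb1 did not hold in parts of the lines. Without AN6 and GS4, Setd4 (0.90), Whsc2 (0.79) and Setd3 (0.68) were above it. In AN Kdm5b (0.95) was above it, and in AI Setd6 (0.97), Setd4 (0.90), Whsc2 (0.89) and Suv420h2 (0.85) were. Of the 51 members, 15 had an r over 0.5 (29.4%) and 5 an r under -0.5 (9.80%), against 19.1% and 16.9% of all genes tested other than the markers.

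The erasers' medians spread further between lines than the writers' did. Taking each member's deviation from its own mean over the 16 lines, the median over the 15 erasers was 0.25 in AN20, 0.17 in GS4, 0.15 in AN9 and 0.11 in AI3, and -0.26 in AN6 and -0.20 in GS9. The writers' median lay between -0.11 (AN6) and 0.13 (GS4), and that of all genes between -0.05 and 0.02. A median over fewer genes varies more, and a signed median of all genes can stay near 0 while they deviate. The median absolute deviation of all genes was 0.201 in AN6, 0.207 in AN20, 0.204 in GS4 and 0.250 in GS9. It was 0.083 to 0.191 in the other lines. For the tested members it was 0.189 in AN6, 0.170 in AN20, 0.208 in GS4 and 0.187 in GS9. In AN6, 0 of 15 erasers lay above their mean, and in AI3 and GS4, 13 did. AN6 also had the lowest mean of the pluripotency markers, 6.12 on the log2 scale against 6.38 to 7.24 in the other lines. The part of these shifts in the group differences was not tested beyond leaving the lines out.

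**Figure D5:**
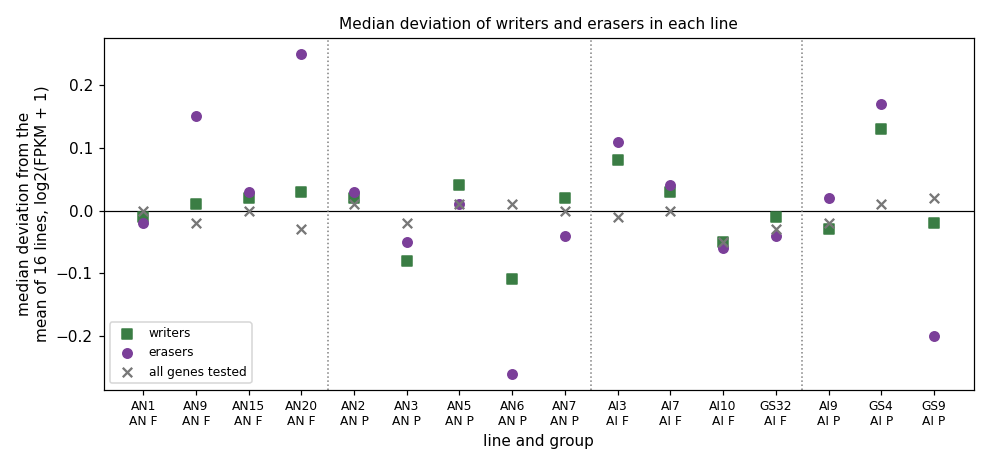
Median deviation from the mean of the 16 lines, on the log2(FPKM + 1) scale, of the 26 writers, the 15 erasers and all genes tested, for each line ordered by group. The erasers range from -0.26 in AN6 to 0.25 in AN20, and the writers from -0.11 to 0.13.

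AN and AI lines were then compared with the F and P states weighted equally. Members differed little by derivation route: 50 of 51 differed by under 0.2 on the log2 scale (98.0%, against 91.9% of all genes). No member passed an adjusted p of 0.05 in limma (0% of all genes did), and the smallest among the members was 0.999. At an unadjusted limma p under 0.05, Jmjd4, a JmjC hydroxylase of a translation termination factor, was higher in AN and the H3K36 writer Whsc1l1 (NSD3) lower, which is 1.96% of the members in each direction, against 2.16% of all genes higher and 1.36% lower. Jmjd4 had 4.99 to 6.22 FPKM in AN and 4.46 to 5.66 FPKM in AI, a difference of 0.15 ± 0.06 (SE, limma p = 0.0292, exact permutation p = 0.0102). It did not pass the unadjusted threshold with derivation (0.15) or passage (0.12) as a term, under quantile normalization (0.13), with a minimum of 5 FPKM (0.15) or without any 1 of AN2, AN5, AN9, AI9, AI10 or GS4 (0.13 to 0.15). Whsc1l1 had 7.83 to 10.2 FPKM in AN and 9.05 to 12.8 FPKM in AI, a difference of -0.18 ± 0.07 (SE, limma p = 0.0292, exact permutation p = 0.0158), and -0.09 with passage as a term (limma p = 0.252). It did not pass with derivation as a term (-0.11) or without any 1 of AN9, AN15, GS4 or GS32 (-0.17 to -0.10). The ranges of both genes overlapped. Of the 26 writers, 8 had a higher mean in AN (median -0.05), as had 7 of 15 erasers, against 51.6% of all genes. The writers' count did not keep its direction, since it was 14 of 26 with passage as a term (median 0.01), 14 of 26 without GS4 and 13 of 26 without AN6. Passage was above 7 only in GS4 and GS32, so the passage term rests mainly on these 2 AI lines.

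The 2 members under the filter were compared by exact permutation tests. Kdm4d was 0.0328 to 0.142 FPKM in 15 lines and 0.304 FPKM in GS4, and its exact p was 0.857 in AN and 0.629 in AI. For Kdm5d the exact p was 0.175 in AN and 0.171 in AI. In the interaction the exact permutation p, unadjusted, was 0.558 for Kdm4d and 0.0272 for Kdm5d, whose value was 0.25. Kdm5d ran from 0.173 to 0.486 FPKM, where the precision is unknown.

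Other enzymes and partners outside the name pattern were examined in the same way. Of 21 further writers and erasers listed, 19 were in the table, and 0 passed an adjusted limma p of 0.05 in any of the 4 comparisons. At an unadjusted limma p under 0.05, the JmjC protein Mina was lower in AI F (-0.41, limma p = 0.0466, exact permutation p = 0.114), and Ezh1, Ezh2, Jhdm1d and Mina had a smaller F minus P difference in AI than in AN. The latter are 4 of 19 (21.1%), against 5.88% of the members and 8.34% of all genes, and the former 1 of 19 (5.26%), against 4.30% of all genes. Ezh2, the H3K27 methyltransferase of Polycomb, had 0.13 ± 0.09 in AN and -0.27 ± 0.16 in AI (SE), giving -0.40 ± 0.18 (limma p = 0.0384, exact permutation p = 0.0553). Of 21 partner proteins of the H3K4 writers, the H3K9 writers and Kdm1a, 0 passed an adjusted limma p of 0.05, and at an unadjusted p only Mphosph8, a reader of H3K9 methylation, did so, in the interaction (-0.78 ± 0.26, SE, limma p = 0.00880, exact permutation p = 0.0240).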

How the data were processed

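Single-end RNA-seq was made by the authors from total RNA of the 16 lines. Per the labels, TopHat2 2.1.0, HTSeq and Cufflinks 2.2.1 were used with mm9. The deposited values are FPKM, 1 for each gene name in each line, and were not rescaled here. How the authors normalized libraries, and the strand setting, are not given in the sources used here, and read counts are unknown, so no counting intervals are given. The members and lists were chosen with earlier results of these data known.

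Tests used log2(FPKM + 1), which understates fold changes of low genes, and took in every gene whose 16-line mean reached 0.5 FPKM. They were run with limma 3.58.1 (R 4.3.3), letting the variance follow the mean level. The AN F and AN P groups were set against each other in a fit of their 9 lines, AI F and AI P in one of 7, and the other 2 comparisons used all 16. P-values were adjusted by Benjamini-Hochberg over all genes tested, with a threshold of 0.05. The Cuffdiff test of the study needs reads and was not run. Single genes were also compared by exact two-sided permutation tests in Python 3.11.15, with p as in scipy 1.17.1. All regroupings were used: 126 (AN), 35 (AI), 3920 (AN against AI, within F and within P) and 4410 (interaction, within AN and within AI). For the interaction the test is exact only where F and P lines do not differ in either kind of line. The smallest p these tests can give are 0.0159, 0.0571, 0.000510 and 0.000454. The limma fit was tested on simulated data.

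Members named with values were those with an unadjusted limma p under 0.05 in any comparison, those whose F and P lines did not overlap, the 5 highest and the 5 lowest in mean FPKM, the 5 with the largest SD, Jmjd1c, Kdm5c, Kdm5d, and the H3K9 writers and erasers. Others named beside counts were chosen after their values were seen. The settings varied were the pseudocount (0.1), the filter (5 FPKM or none), the scaling (quantile or median-ratio), the variance model (no trend, or a robust prior), the terms (passage or derivation), the lines in the fit (all 16) and each single line left out. Leaving out AN9 and AN20 together was chosen after seeing the data.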

Additional observations from a re-analysis of the deposited data

Results flagged for a closer look

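Among the named members, groups of 4 or 5 lines were searched for 1 line far from the others, by the gap to the nearest line over the range of the group. Of 90 groups searched, 7 had such a line. Chance gives about 1 in 20 for independent groups of genes not chosen by their values. The named members were chosen partly by their spread and p in these data, and genes of a line share its library. The count therefore cannot be judged against that rate. AN6 was the low line of AN P in 4 of them: Ehmt1 at 15.1 FPKM against 19.5 to 21.2, Kdm3a at 19.6 FPKM against 27.8 to 31.1, Kdm5b at 33.3 FPKM against 55.7 to 62.8, and Mll3 at 1.43 FPKM against 2.62 to 3.14. AI10 was the low line of AI F for Kdm4a, at 17.0 FPKM against 20.8 to 21.7, and for Setdb1, at 25.6 FPKM against 31.4 in each of the others. GS32 was the low line of AI F for Suv39h2, at 7.85 FPKM against 9.36 to 9.54.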

How the results depend on the processing

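Members at an adjusted p under 0.05 numbered 0 under every alternative run in the 2 F against P comparisons and in AN against AI. In the interaction they numbered 0 to 2 when 1 line was left out, with 2 only without AI9. Counts at an unadjusted p under 0.05 were less stable. In AN F against AN P, 3 became 1 with no filter, 0 with passage as a term, 5 in a fit of all 16 lines, 0 without AN9 and AN20 (chosen after seeing the data), and 0 to 8 without any 1 line: 0 without AN3, AN5, AN9 or AN20, 1 without AN6, 7 without AN15 and 8 without AN1. In AI F against AI P, 2 became 1 with a minimum of 5 FPKM, with no trend or with passage as a term, 5 in the fit of all 16 lines, 0 with derivation as a term, and 0 to 7 without 1 line: 0 without AI3, AI10 or GS9, 1 without GS4, 5 without AI7 and 7 without AI9. Erasers with a higher mean in AI F numbered 3 to 10 of 15 without 1 line. In AN against AI, 2 became 1 under quantile normalization or with derivation as a term, and 1 to 4 without 1 line (4 without GS4). In the interaction, 4 became 2 with a minimum of 5 FPKM, 0 with derivation as a term, and 1 to 13 without 1 line: 1 without AN9 or GS4, 2 without AN3, AN20 or AI10, 8 without AN1, 9 without AI7 and 13 without AI9. The cause was not tested. No named difference at an unadjusted p under 0.05 changed sign. Differences of the other named members changed sign in 6.17% to 9.30% of their values. No paired analysis was possible because each line is a separate clone and the labels give no replicate numbers. Without read counts the precision of low genes is unknown, and 3 to 5 lines a group limit what can be detected.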
